A study of Homo sapiens with 11 samples.

Results

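The genes that send, receive and modulate Wnt signals were examined in HK2 cells, a human kidney proximal tubule epithelial line. The set holds 48 genes taken by name from the RNA-seq annotation, of 58288 genes listed there and of 19646 protein-coding genes that also had a transcription start site (TSS) on hg19. It comprises 19 Wnt ligands, 10 frizzled receptors, 5 secreted Wnt-binding inhibitors, 4 dickkopf genes, the co-receptors LRP5 and LRP6, the feedback inhibitor AXIN2, 3 R-spondin receptors and 4 R-spondins. The rule takes genes by name and uses no measured value, although the set was drawn up with earlier results of these data known. The study mapped histone marks and transcripts of HK2 cells grown under 1 condition, so genes and not treatments were compared. Each of the marks H3K4me3, H3K27ac and H3K27me3 was mapped by ChIP-seq in 2 replicates, deposited as peak lists, and RNA was sequenced in 2 libraries, deposited as FPKM (fragments counted per kilobase of transcript and scaled to the mapped fragments of the library). HK2 is an immortalized line kept in culture, and nothing in the labels tells whether replicates came from separate cultures, so their spread may be technical.

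Wnt ligands are secreted, lipid-modified glycoproteins that bind frizzled receptors and the co-receptors LRP5 or LRP6, which stabilizes beta-catenin and activates genes bound by TCF and LEF factors, while other ligand and receptor pairs act on cell polarity and movement without beta-catenin. Dickkopf and secreted frizzled-related proteins act outside the cell on receptors or ligands, and R-spondins raise receptor levels through LGR receptors. In the kidney, ligands such as WNT9B and WNT4 are known for inducing nephron tubules during development. H3K4me3 marks start sites, H3K27ac marks active promoters and enhancers, and H3K27me3 is the mark of Polycomb repression.

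Implied sequence behind the RNA-seq files was 5.67 and 5.52 gigabases in the 2 libraries. In replicates 1 and 2, H3K4me3 had 28615 and 73505 peaks of median width 1194 and 434 bp, H3K27ac had 57687 and 38554 of 1357 and 657 bp, and H3K27me3 had 45858 and 32639 of 1181 and 535 bp. These lists hold positions only, so the height and the read depth behind a peak are unknown, and the lists of the same mark differ in number and width. Of the markers checked, 4 of 5 epithelial genes but 3 of 14 proximal tubule genes reached an FPKM of 1 in both libraries, the latter being PAX8, GGT1 and SLC5A2, while LRP2, SLC22A6, SLC22A8 and HNF4A, which define mature proximal tubule, were listed at 0. Endothelial and distal nephron markers reached that level in 0 of 3 and 0 of 5 genes, and podocyte, fibroblast and blood markers in 2 of 5, 2 of 5 and 1 of 3. Summed FPKM in libraries 1 and 2 was 410 and 393 for the epithelial list, 167 and 165 for proximal tubule, 45.9 and 44.6 for fibroblast, 42.5 and 36.8 for blood, and 19.1 and 22.0 for podocyte genes.

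The Wnt genes split into a transcribed subset and a larger subset that carried H3K27me3. A gene is called transcribed below when both libraries gave it an FPKM of 1 or more, which held for 18 of the 48 members and for 58.8% of all protein-coding genes. In both libraries 16 members were listed at 0, against a background of 19.6%. Median FPKM was 0.129 over the members and 3.32 over all protein-coding genes. A peak was counted for a gene when it came within 1 kb of any annotated TSS in both replicates. H3K27me3 was found at 27 members, or 56.25%, where the background was 11.4%. H3K4me3 was found at 34 members beside a background of 70.3%, and H3K27ac at 15 members beside 55.0%. H3K4me3 with H3K27ac and without H3K27me3 was seen at 13 members (background 52.2%), H3K4me3 together with H3K27me3 at 17 (background 7.02%), and no mark at 4 (background 23.8%). The H3K27ac count was 24 by replicate 1 alone, and the count with H3K4me3 and H3K27me3 was 26 by replicate 2 alone. Members have fewer annotated start sites than other genes, with a median of 3 against 5, which gives them fewer windows in which a peak can be counted.

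**Figure D1:**
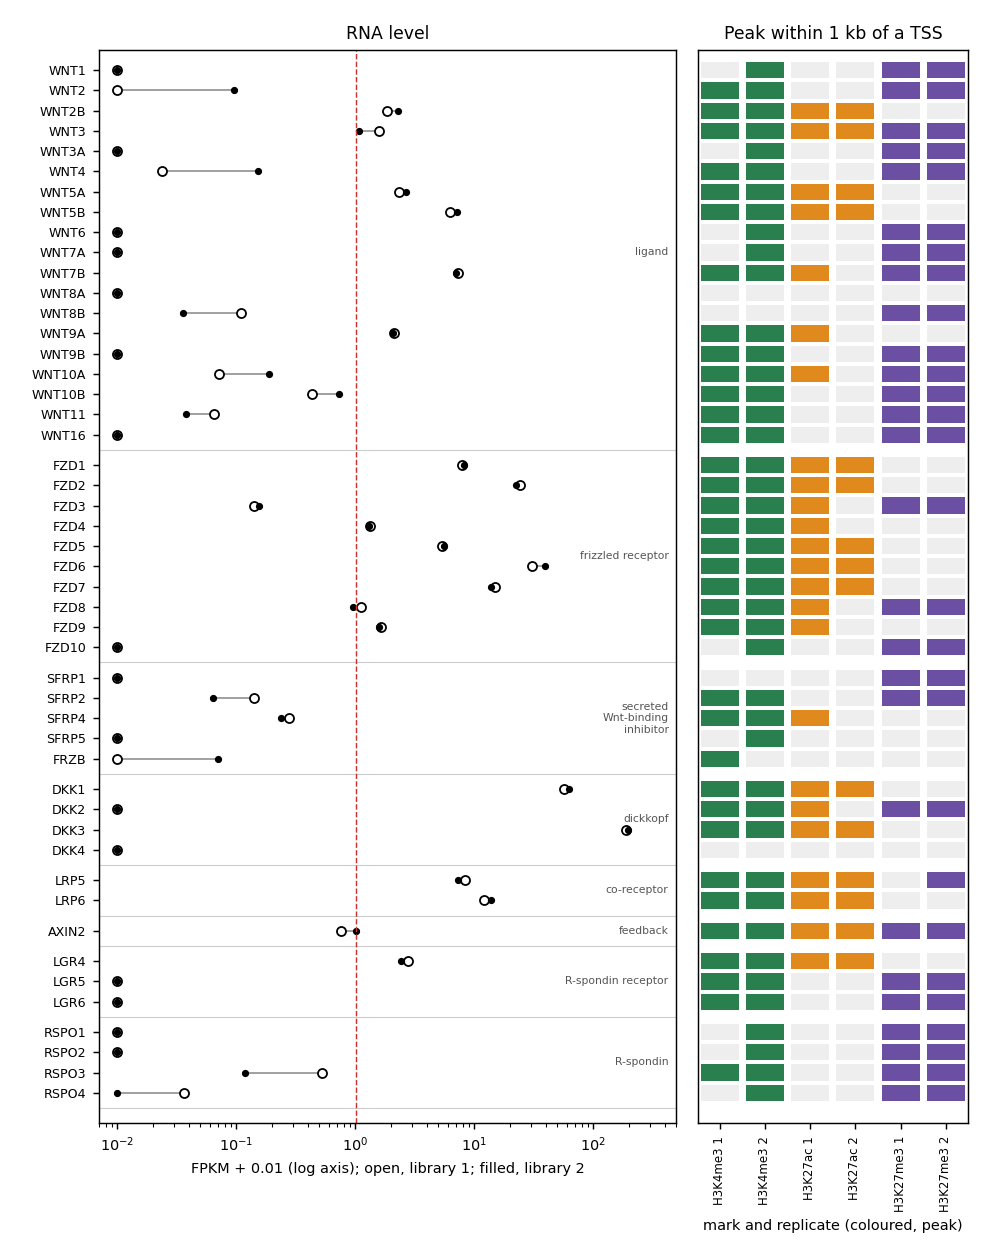
FPKM of each of the 48 members in library 1 (open) and library 2 (filled) on a log axis after adding 0.01, with the dashed line at an FPKM of 1, beside tiles that are coloured where a peak of the mark lay within 1 kb of a TSS in that replicate. Members to the right of the line mostly show H3K27ac tiles, and 25 of the 27 members with H3K27me3 in both replicates lie left of it in at least 1 library.

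Letters just upstream of the canonical TSS are shown for 4 members at which H3K4me3 in both replicates was not found at this start site, with and without H3K27me3. WNT6 (chr2:219724378-219724527, plus strand) and WNT8B (chr10:102222616-102222765, plus strand) carried H3K27me3 without H3K4me3 in both replicates. WNT5B (chr12:1738247-1738396, plus strand) had no mark at this start site, and FRZB (chr2:183731366-183731515, minus strand) had none at all in both replicates. Each run is 150 bases of GRCh37 read 5′ to 3′ on the strand of the gene, ends at the base before the TSS, overlaps no annotated exon and has CpG dinucleotides in capitals.
WNT6: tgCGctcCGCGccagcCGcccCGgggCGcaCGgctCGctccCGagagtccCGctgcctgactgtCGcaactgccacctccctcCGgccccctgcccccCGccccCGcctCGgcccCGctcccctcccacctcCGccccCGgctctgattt
WNT8B: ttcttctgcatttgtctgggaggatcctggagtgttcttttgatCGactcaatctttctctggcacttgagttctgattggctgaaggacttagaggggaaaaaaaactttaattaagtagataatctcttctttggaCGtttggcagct
WNT5B: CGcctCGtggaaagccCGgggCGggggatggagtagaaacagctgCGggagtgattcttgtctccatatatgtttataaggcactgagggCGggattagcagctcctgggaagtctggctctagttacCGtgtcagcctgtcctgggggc
FRZB: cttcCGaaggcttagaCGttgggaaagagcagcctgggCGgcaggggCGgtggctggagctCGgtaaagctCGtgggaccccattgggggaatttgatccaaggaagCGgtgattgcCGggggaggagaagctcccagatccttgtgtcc
These 150 bases held 18 CpG in WNT6, 8 in FRZB, 7 in WNT5B and 2 in WNT8B.

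Of the 19 Wnt ligands, 6 were transcribed. WNT7B, a ligand of epithelia that acts through beta-catenin in several tissues, had an FPKM of 7.29 in library 1 and 7.06 in library 2, a mean of 7.18 ± 0.159 (SD, n = 2). WNT5B, a relative of WNT5A that usually signals without beta-catenin, had 6.23 and 7.20, a mean of 6.72 ± 0.686. The summed FPKM of these 2 ligands overlap between libraries, so their order by sum is not resolved. The WNT5B sum is spread over isoforms. Its top transcript held 2.46 in library 1 and 3.03 in library 2, beside 6.90 and 7.04 for that of WNT7B. Aligned bases were 51293 and 54032 for WNT5B and 76758 and 75503 for WNT5A, so the place of WNT5B above WNT5A rests on the FPKM sum. WNT5A, which signals through ROR receptors and planar polarity, followed at 2.34 and 2.66. WNT9A and WNT2B had 2.12 and 2.09, and 1.83 and 2.26, and their libraries overlap as well. WNT3, a beta-catenin ligand of stem cell niches, was the lowest of the 6 at 1.57 and 1.06.

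The start sites of the 6 transcribed ligands were marked in different ways. WNT5A had H3K4me3 and H3K27ac over its canonical TSS in both replicates, with H3K27ac peaks of 3925 and 2119 bp. WNT5B carried the same pair of marks in both replicates only at its upstream start sites near chr12:1639057-1639985, and none of the 3 marks lay within 1 kb of its canonical TSS at chr12:1738397. Transcripts from the upstream WNT5B sites held an FPKM of 2.27 and 3.25, while those starting at 1725826 to 1726222, where no peak was called, held 2.52 and 2.81, and those from the group of the canonical TSS 1.43 and 1.15. The most abundant WNT5B transcript changed between libraries, from ENST00000310594 to ENST00000545811, so this split of FPKM among start sites is uncertain. WNT2B had H3K4me3 at its canonical TSS, and the H3K27ac peaks shared by both replicates lay at an internal start site at chr1:113057374. WNT9A had H3K4me3 in both replicates with H3K27ac in replicate 1 only and no H3K27me3.

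WNT7B and WNT3 were the transcribed members with H3K27me3. At WNT7B, H3K27me3 peaks of 2905 and 3083 bp and H3K4me3 peaks of 1907 and 2124 bp lay over the canonical TSS at chr22:46373042, and an H3K27ac peak of 1177 bp was called there in replicate 1 alone. Start sites of that group held all of the WNT7B FPKM to 2 decimals, 7.29 and 7.06. WNT7B also had an H3K27ac peak of 4737 bp in replicate 1 within the gene, 5257 bp from the canonical TSS. H3K27ac shared by both replicates covered 1.90 kb within 10 kb of that TSS and 6.80% of the gene. At WNT3, H3K27me3 and H3K4me3 met at the canonical TSS at chr17:44896058, which held all deposited FPKM of the gene, while H3K27ac and H3K4me3 in both replicates lay at internal start sites at chr17:44848813-44849653, whose 3 transcripts have no FPKM in the deposited annotation. The FPKM of WNT3 therefore cannot be assigned between those start sites.

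The other 13 ligands stayed under an FPKM of 1 in both libraries, and 12 of them carried H3K27me3 in both replicates. H3K4me3 was also present in both replicates at 7 of these: WNT2, WNT4, WNT9B, WNT10A, WNT10B, WNT11 and WNT16. WNT10B, a ligand with roles in fat and bone, was the highest of the 13 at 0.424 and 0.715. WNT4, which the developing nephron uses for its mesenchyme-to-epithelium step, had 0.014 and 0.143. WNT10A had 0.062 and 0.177, WNT11 0.055 and 0.028, and WNT2 was listed at 0 in library 1 and 0.085 in library 2. WNT9B, the inducer made by the ureteric bud and collecting duct, and WNT16 were listed at 0 in both libraries. H3K27me3 without H3K4me3 in both replicates was found at WNT1, WNT3A, WNT6, WNT7A and WNT8B, of which the first 4 were listed at 0 and WNT8B had 0.099 and 0.026. WNT8A, a ligand of early embryos, was listed at 0 and had no peak of any mark in either replicate. Values this low rest on few reads, since the 0.085 of WNT2 corresponds to 598 aligned bases.

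Frizzled receptors were the role with the largest number of transcribed members, at 7 of 10, and 9 of the 10 carried H3K4me3. FZD6 was the highest at 30.4 and 39.7 FPKM, a mean of 35.0 ± 6.59 (SD, n = 2). FZD2 followed at 24.1 and 22.5 and FZD7, close to FZD1 and FZD2 in sequence, at 14.9 and 13.9. FZD1 had 7.88 and 8.19, and FZD5, a receptor for several Wnt ligands, 5.40 and 5.53. By FPKM summed over transcripts, the libraries of these 5 receptors did not overlap between neighbours in this order. All 5 carried H3K4me3 and H3K27ac in both replicates and no H3K27me3. FZD9 and FZD4, the latter known as the Norrin receptor, had 1.65 and 1.56, and 1.31 and 1.28, with H3K4me3 in both replicates and H3K27ac in replicate 1 only.

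FZD3, FZD8 and FZD10 were the frizzled genes with H3K27me3. FZD8 lay at the threshold with 1.12 and 0.951. At FZD8 the H3K4me3 peaks of 2606 and 2544 bp covered the TSS, and the H3K27me3 peaks of 2006 and 1932 bp began 352 and 393 bp upstream of it. FZD3, a receptor of axon guidance and planar polarity, had 0.132 and 0.145 with H3K4me3 and H3K27me3 in both replicates. FZD10 was listed at 0 and had H3K27me3 in both replicates and H3K4me3 in replicate 2 only. FZD1, FZD2, FZD4, FZD5, FZD7, FZD8 and FZD9 have a single annotated transcript, so their FPKM does not depend on how reads were shared among isoforms. FZD6 was different, because the transcript with the highest FPKM changed between libraries, from ENST00000521195 (14.6 in library 1, 0.306 in library 2) to ENST00000519011 (1.34 and 21.5). Both are annotated as targets of nonsense-mediated decay, while the sum moved by 0.386 on the log2 scale. The top transcript held 47.9% of the FZD6 sum in library 1 and 54.2% in library 2. The place of FZD6 above FZD2 depends on these transcripts.

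Both co-receptors were transcribed. By FPKM summed over transcripts, LRP6 had 12.2 and 13.8 and LRP5 had 8.38 and 7.25, and these libraries did not overlap. LRP6 had H3K4me3 and H3K27ac at its canonical TSS in both replicates. At the canonical TSS of LRP5, H3K4me3 was called in both replicates, H3K27ac in replicate 1 only and H3K27me3 in replicate 2 only, in a peak of 264 bp. The H3K27ac of LRP5 that was called in both replicates lay at an internal start site at chr11:68206061, so LRP5 counts as marked by H3K27ac through that site. The canonical transcript of LRP5 held 7.19 and 6.45 FPKM and that of LRP6 held 5.83 and 6.09. The order of the 2 genes therefore depends on summing over isoforms.

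R-spondins and their receptors were mostly not transcribed by the threshold used here. LGR4, the receptor with the broadest tissue range, had 2.78 and 2.43 FPKM, with H3K4me3 and H3K27ac in both replicates. LGR5, the stem cell marker of intestine and other epithelia, and LGR6 were listed at 0 and carried H3K4me3 and H3K27me3 in both replicates. In LGR6 the marks met in both replicates at an internal start site at chr1:202183283, and H3K27me3 in both replicates covered 16.4% of the gene. All 4 R-spondins carried H3K27me3 in both replicates. RSPO3 had 0.521 and 0.108 FPKM with H3K4me3 as well, RSPO4 had 0.026 in library 1 and was listed at 0 in library 2, and RSPO1 and RSPO2 were listed at 0.

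The secreted antagonists differed between families. DKK3, a divergent dickkopf that does not bind LRP6 in the way DKK1 does, was the highest of all 48 members at 189 and 197 FPKM, a mean of 193 ± 5.37 (SD, n = 2), above 98.9% of protein-coding genes. DKK1, the inhibitor that binds LRP5 and LRP6 and is itself a beta-catenin target, had 56.7 and 62.4, a mean of 59.5 ± 4.06, above 95.2% of genes. DKK2 and DKK4 were listed at 0. DKK1 lay in an H3K27ac peak of 8467 bp in replicate 1 (chr10:54072587-54081053) and replicate 2 had 3 H3K27ac peaks in the gene, which covered 85.3% of it. DKK3 had H3K27ac peaks of 3101 and 909 bp over its canonical TSS, and a further peak of 26900 bp in replicate 1 (chr11:11996793-12023692) lay inside the gene. In all, replicate 1 had 8 H3K27ac peaks over 67.9% of the DKK3 gene and replicate 2 had 10 over 25.4%. No H3K27me3 peak was called in the windows of DKK1 and DKK3. DKK2 had H3K27me3 and H3K4me3 in both replicates and H3K27ac in replicate 1 only, and DKK4 had no peak.

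The DKK3 sum was stable while its isoforms were not. Transcript ENST00000396505 held 112 and 19.4 FPKM in libraries 1 and 2, and ENST00000326932 held 40.0 and 142. Both start within the same group of start sites, which held 188 and 196 FPKM in all. Over the 19 members with a mean FPKM of at least 1, the most abundant transcript was the same in both libraries in 15. That agreement was fixed in advance for WNT9A and the frizzled genes with a single annotated transcript. The most abundant transcript changed in WNT2B, WNT5B, FZD6 and DKK3.

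None of the 5 secreted Wnt-binding inhibitors reached an FPKM of 1. SFRP4 had 0.266 and 0.229 with H3K4me3 in both replicates, H3K27ac in replicate 1 only and no H3K27me3. SFRP2 had 0.130 and 0.053 with H3K4me3 and H3K27me3. SFRP1, an inhibitor often silenced in tumours, was listed at 0 and carried H3K27me3 without H3K4me3 in either replicate. SFRP5 was listed at 0, and FRZB was listed at 0 in library 1 and 0.060 in library 2. Neither gene had a mark in both replicates, since SFRP5 had H3K4me3 in replicate 2 only and FRZB in replicate 1 only.

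AXIN2, the scaffold of the beta-catenin destruction complex whose gene is a common readout of the pathway, lay at the threshold with 0.749 and 1.01 FPKM, a mean of 0.878 ± 0.183 (SD, n = 2). It carried all 3 marks by gene, and within a replicate its H3K27ac and H3K27me3 peaks did not overlap. H3K4me3 peaks of 2697 and 2598 bp covered the canonical TSS at chr17:63557766, H3K27ac peaks of 1191 and 433 bp lay over it or 114 bp from it, and H3K27me3 peaks of 441 and 1123 bp lay 1728 and 1009 bp away, toward the inside of the gene. AXIN2 was the only one of the 15 members with H3K27ac in both replicates that was not transcribed by the threshold used here.

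Levels of the members differed by the marks at their start sites, as did those of all genes. The 13 members with H3K4me3 and H3K27ac all reached an FPKM of 1, with a median of 8.03 and a range of 2.05 to 193, while 92.6% of the 10248 protein-coding genes with these marks did, at a median of 11.7. Of the 4 members with H3K4me3 only, 3 were transcribed (WNT9A, FZD4 and FZD9), with a median of 1.45 over the 4, beside 65.0% of all genes of that class at a median of 2.65. Of the 15 members with H3K4me3 and H3K27me3, only WNT7B was transcribed, and their median was 0.079, beside 14.7% and 0.0995 over the 1126 genes of that class. The 10 members with H3K27me3 only and the 4 with no mark held no transcribed gene, beside 0.705% and 4.19% over all genes of those classes. The median log10(FPKM + 1) was 0.945 higher in the 15 members with H3K27ac than in the 25 with H3K27me3 and no H3K27ac, and by replicate 1 peaks alone the difference was 0.550. Genes are not replicates and no test was run across them.

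**Figure D2:**
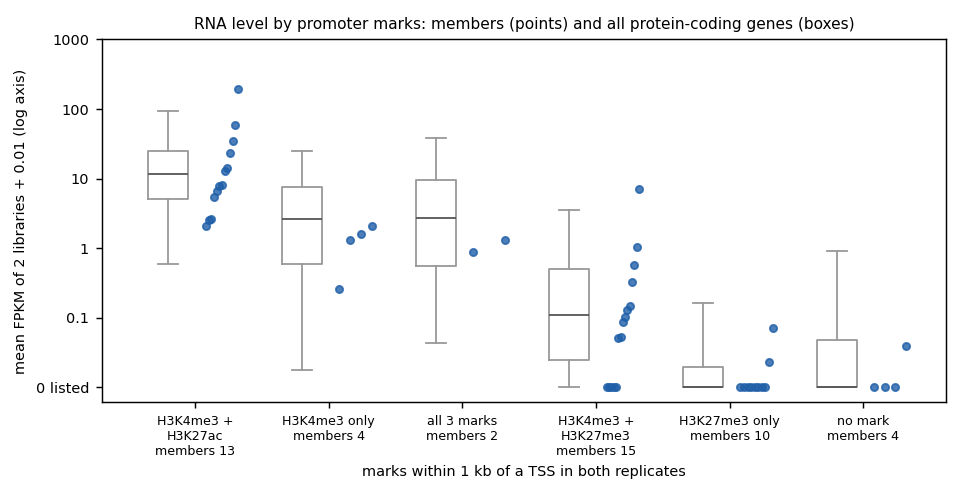
Mean FPKM of the 2 libraries plus 0.01 on a log axis, for genes sorted by the marks within 1 kb of a TSS in both replicates. Points are members, boxes give quartiles of all protein-coding genes with whiskers at percentiles 5 and 95, and all 13 members with H3K4me3 and H3K27ac lie at 2.05 or above while those with H3K27me3 only lie at 0.0622 or below.

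The classes depend on which start site is used. With all marks required at the same TSS, 11 of the 13 members with H3K4me3 and H3K27ac and no H3K27me3 kept that state, WNT2B and LRP5 left it and WNT3 and AXIN2 entered it. H3K4me3 and H3K27me3 met at the same TSS in all 17 members that had both. At the canonical TSS alone, H3K27ac was found in 11 members and H3K27me3 in 26.

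Replicates of H3K27me3 differed little in which members were marked, and those of the other marks differed more. H3K27me3 was called in both replicates at 27 members, in neither at 20, and in replicate 2 only at LRP5. H3K27ac was called in replicate 1 only at 9 members: WNT7B, WNT9A, WNT10A, FZD3, FZD4, FZD8, FZD9, SFRP4 and DKK2. Their median FPKM of 1.03 lay between 7.82 in the 15 members marked in both replicates and 0 in the 24 marked in neither, and the same medians over all genes were 2.40, 11.0 and 0. H3K4me3 was called in replicate 2 only at 9 members, of which 8 carried H3K27me3: WNT1, WNT3A, WNT6, WNT7A, FZD10, RSPO1, RSPO2 and RSPO4. Over all genes with H3K4me3 in replicate 2 only, 496 of 1517, or 32.7%, carried H3K27me3. Replicate 2 of H3K4me3 is the list with the most peaks and the narrowest ones, and its part in these calls was not tested. The study also reports the fraction of mapped reads in peaks. It was lower in replicate 2 than in replicate 1 for H3K27ac and H3K4me3, with the larger gap for H3K27ac, and close for H3K27me3. Its part in the calls was not tested either.

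Around the canonical TSS, the marks of the transcribed and the other members separated (the plot of marks by distance). Among the 18 transcribed members, the TSS itself lay in an H3K4me3 peak of both replicates in 94.4%, and the share in H3K27ac reached 55.6% at 0.2 kb downstream, beside 92.8% and a highest share of 71.3% for all transcribed genes. Among the 30 other members, 56.7% had the TSS in H3K27me3, with a highest share of 63.3% at 0.9 kb downstream, and 46.7% still lay in the mark at 2 kb downstream against 16.7% at 2 kb upstream. Over all 8097 protein-coding genes below the threshold, the highest share in H3K27me3 was 14.3%. H3K4me3 covered the TSS in 43.3% of the 30 members and in 21.5% of those 8097 genes.

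**Figure D3:**
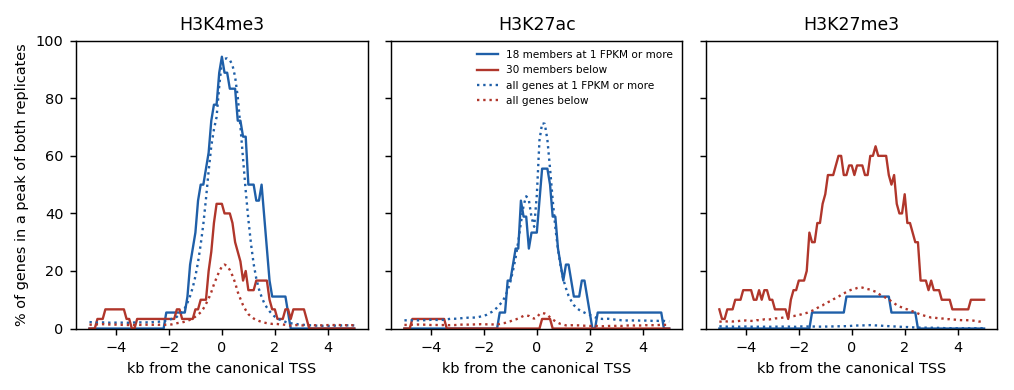
Share of genes (%) whose position at each distance (kb) from the canonical TSS, positive downstream, lay in a peak of both replicates, for transcribed members (18, solid blue), other members (30, solid red) and all protein-coding genes of the same levels (dotted). The red solid line reaches 63.3% for H3K27me3, and the blue solid line 94.4% for H3K4me3.

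The length of H3K27me3 varied widely among the 27 members that had it. Within 10 kb of the canonical TSS, the length in peaks of both replicates ran from 0.22 kb at FZD10 and 0.40 kb at AXIN2 to 8.63 kb at SFRP2. WNT10A had 8.09 kb, RSPO1 7.84 kb, WNT1 7.36 kb, WNT8B 7.28 kb and WNT3A 6.26 kb. The 6.44 kb of WNT10B lay in the stretch that its window shares with that of its neighbour WNT1, and its own peaks near a TSS were 924 and 1394 bp wide. The 4.30 kb gene of WNT1 lay wholly in H3K27me3 in both replicates. WNT7B had 2.72 kb and WNT3 3.09 kb, within the range of the members that were not transcribed by the threshold used here. Replicate 1 gave the longer value in most members, by most at SFRP2 (17.7 against 8.63 kb) and WNT2 (11.7 against 4.32 kb), and its H3K27me3 list covers 88.3 Mb of the genome where that of replicate 2 covers 26.7 Mb.

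**Figure D4:**
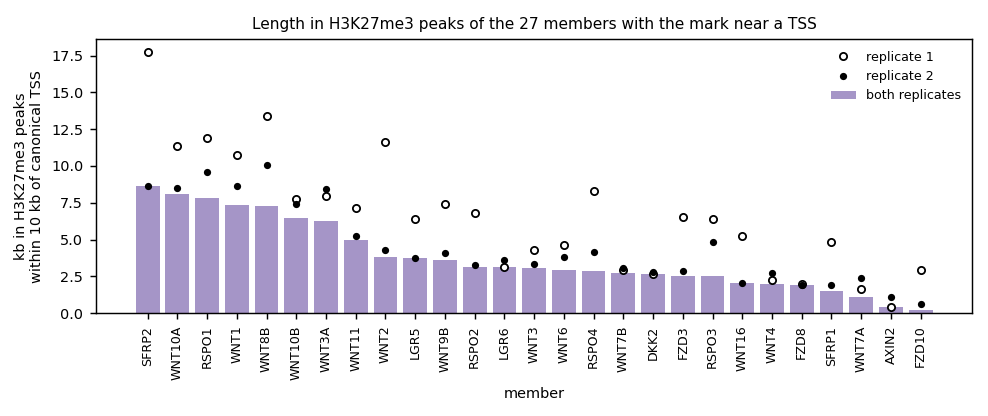
Kilobases within 10 kb of the canonical TSS that lie in H3K27me3 peaks, for the 27 members with the mark near a TSS, in replicate 1 (open), replicate 2 (filled) and both (bars). Bars run from 8.63 kb at SFRP2 to 0.22 kb at FZD10, and open points lie above filled points in most members.

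Several ligands lie next to each other in the genome, and their marks can be read across the interval between their TSSs. WNT10B and WNT1 are 6.59 kb apart, and 31.9% of that interval lay in H3K27me3 of both replicates. WNT6 and WNT10A are 21.0 kb apart with 29.3%. WNT3 and WNT9B, 32.9 kb apart, had 9.91%, and WNT9A and WNT3A, 59.1 kb apart, had 8.63%. H3K27ac of both replicates covered 0% of all 4 intervals. The last 2 pairs join a transcribed ligand to a partner listed at 0, WNT3 at 1.57 and 1.06 FPKM beside WNT9B, and WNT9A at 2.12 and 2.09 beside WNT3A. A peak at a shared interval can fall within reach of either gene, so neighbours are not independent.

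Promoter letters of the members with a mark were mostly rich in CpG. In the 300 bases from 250 upstream of the canonical TSS, C and G made up a median of 72.3% over the members and 63.7% over 19644 protein-coding genes, and the ratio of observed to expected CpG was 0.826 and 0.777. A ratio of at least 0.6 was found in 41 of 48 members, or 85.4%, and in 67.7% of all genes. The 13 members with H3K4me3 and H3K27ac and the 15 with H3K4me3 and H3K27me3 had medians of 0.873 and 0.798, and over all genes of these classes the medians were 0.873 and 0.813. The 10 members with H3K27me3 only had a median of 0.848, where the 851 genes of that class had 0.605. WNT8B was the exception among the 10 at 0.256, as its printed letters with 2 CpG show. WNT5B had 0.352 at its unmarked canonical TSS and 0.900 at the upstream TSS at chr12:1639985 that carried H3K4me3 and H3K27ac. The 4 members with no mark had a median of 0.503, with 2 of them at 0.6 or above, beside 0.252 over all genes of that class, and WNT8A among them had 0.179, the lowest of the 48.

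**Figure D5:**
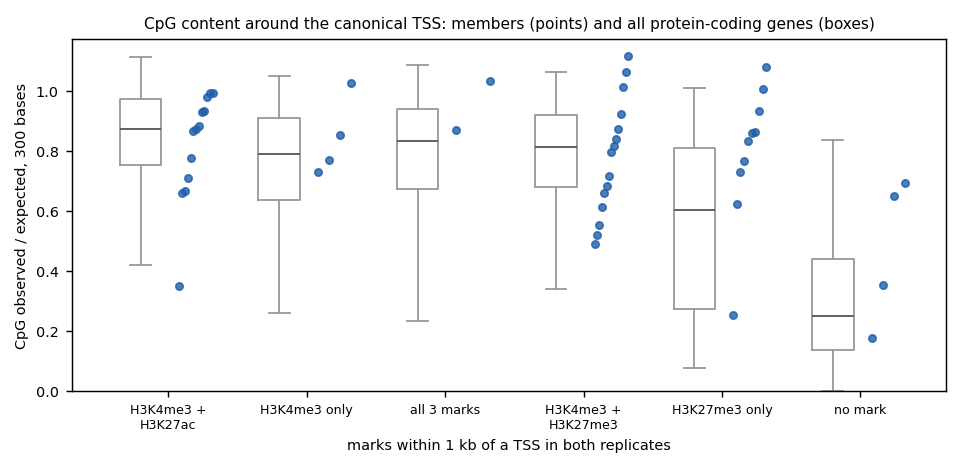
Ratio of observed to expected CpG in the 300 bases around the canonical TSS, by marks within 1 kb of a TSS in both replicates. Points are members, boxes give quartiles of all protein-coding genes with whiskers at percentiles 5 and 95, and 9 of the 10 members with H3K27me3 only lie above the all-gene median of 0.605 for that class.

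The core letters bound by TCF and LEF factors, ATCAAAG, were searched on both strands of these windows. DKK4 was the only member with a match, 1 of 48 or 2.08%, beside 1.93% of all 19644 windows. No match was found at AXIN2 or DKK1, which says only that these letters are not in this window.

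H3K27ac regions of both replicates over 1 kb from any TSS and outside H3K4me3 were assigned to the nearest protein-coding TSS. At least 1 such region was found for 14 members, or 29.2%, beside 24.8% of all protein-coding genes, and for 8 of the 18 transcribed members, beside 30.4% of all transcribed genes. DKK3 had 6 regions with a total of 6.30 kb, DKK1 had 5 with 5.36 kb and FZD2 had 4 with 6.04 kb, the nearest of them 2604, 4913 and 10250 bp from a TSS. SFRP1 had 5 regions at 104975 to 154850 bp although it was listed at 0, and RSPO3 had 4 at 7576 to 92605 bp. WNT7B had 3 regions, the nearest at 3037 bp, in both replicates, although H3K27ac at its TSS was called in replicate 1 only. Nearest distance does not show which gene a region acts on.

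The rest of the pathway was set beside the members from a list of 45 genes. Of these, 33 were transcribed, beside 58.8% of all protein-coding genes. H3K4me3 and H3K27ac without H3K27me3 were found at 27 (background 52.2%), and H3K27me3 at 11 (background 11.4%). All 9 cytoplasmic transducers were transcribed with H3K4me3 and H3K27ac, from CTNNB1, which encodes beta-catenin, at 80.3 and 76.1 FPKM to APC at 1.45 and 2.57. The genes for ligand secretion, PORCN and WLS, had 14.4 and 14.0, and 24.6 and 22.2. Of the other receptors, RYK was highest at 26.6 and 26.4 and ROR2, a receptor for WNT5A, was at 0.012 and listed at 0, while ROR1 had 6.47 and 8.25. Of 7 other extracellular inhibitors, KREMEN1 and KREMEN2, partners of DKK1, were transcribed at 8.29 and 7.72, and 5.83 and 5.39. ZNRF3, which removes frizzled receptors from the surface, had 5.36 and 4.78 and its relative RNF43 0.310 and 0.413, the latter with H3K27me3. Of 8 nuclear genes, 6 were transcribed, with BCL9L highest at 19.7 and 19.1, and LEF1 lowest at 0.306 and 0.124 with H3K27me3. Of 7 planar polarity genes 6 were transcribed, PRICKLE1 highest at 22.5 and 27.5 and VANGL2 lowest at 0.187 and 0.185. Of 6 target and feedback genes 4 were transcribed, and MYC among them differed most between libraries at 5.75 and 50.4. TNFRSF19 had 25.5 and 25.3, CCND1 16.9 and 16.4, and SP5 2.69 and 2.55. NKD2 had 0.381 and 0.181 and NKD1 was lowest at 0.044 and 0.046, both with H3K27me3.

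The 2 RNA-seq libraries gave close values for the members. No member with a mean FPKM of at least 1 differed by more than 2-fold between them. In 21 members a gene on the opposite strand overlaps in the annotation, among them WNT5A, DKK1, DKK3 and LRP6, and the sources used here state no strand setting, so reads of such partners cannot be told apart from those of the member.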

How the data were processed

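HK2 cells were profiled by ChIP-seq (6 peak lists) and RNA-seq (2 libraries). HiChIP and input DNA samples were not used. Bowtie2 alignment to hg19 and MACS2 peak calling in each replicate were done by the authors, with versions not given in the sources used here. The deposited lists hold peak positions only. RNA-seq reads were mapped with HISAT2, and the authors deposited StringTie 1.3.3 values (FPKM, TPM and coverage) for each transcript of GENCODE version 27. The study's methods name hg19, whereas the deposited transcript coordinates are those of GRCh38 and were not used. FPKM was summed per gene. TSSs came from GENCODE version 44 mapped to GRCh37 (hg19), and a canonical TSS is that of the transcript the annotation tags as canonical. Peaks on 24 chromosomes counted when they came within 1 kb of a TSS in both replicates. Differences of levels used log10(FPKM + 1).

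The replicate of each mark without a number in its label was taken as replicate 1. Members and lists were chosen with earlier results of these data known. All members are named, with full values for those with a mean FPKM of at least 1, and the other pathway genes by counts with extremes per role. No test was run, since no condition was compared. Counting was tested on simulated data. Settings varied were replicates, window, TSS, peak width, overlap, FPKM threshold, unit, pseudocount and isoforms. Promoter letters came from GRCh37. Those of some members are not reported here. Python 3.11.15, numpy 2.4.6, pandas 2.3.3 and matplotlib 3.10.9 were used.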

Additional observations from a re-analysis of the deposited data

How the results depend on the processing

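Over the alternatives to the main settings, 65 values stayed within 1.5 times the main count, or within 1 SD between libraries for a level, 17 moved further and 1 changed sign. Transcribed members numbered 20 at an FPKM threshold of 0.5, 14 at a threshold of 2 and 21 in TPM, beside 18. H3K4me3 was found at 44 members by either replicate and at 43 by replicate 2 alone, beside 34. By peaks in either replicate, H3K27ac was found at 24 members, H3K4me3 with H3K27me3 at 26 and no mark at 2, and the difference of median log10(FPKM + 1) between members with H3K27ac and those with H3K27me3 alone or with H3K4me3 was 0.550. Leaving out 1 ChIP-seq replicate gave H3K27ac at 15 to 24 members, H3K4me3 with H3K27me3 at 17 to 26, and a difference of 0.550 to 0.945. That difference was 0.922 with a window of 500 bp, 1.14 at the canonical transcript only, 1.35 in TPM, 1.90 with a pseudocount of 0.1, 0.788 among members with a mean FPKM of at least 0.1, and 0.917 to 0.948 with 1 RNA-seq library left out. The median log10 level of all members, 0.0527, was 0.0413 from the most abundant transcript, 0.133 in TPM, 0.0534 to 0.0585 with 1 library left out, and -0.64 with a pseudocount of 0.1, where low levels give negative logarithms by construction. Members over 2-fold apart between libraries were 2 (WNT10A and RSPO3) at a mean FPKM of at least 0.1. No paired analysis was possible because no groups were compared and no test was run. The study reports read totals for each ChIP-seq replicate, but the depth behind each peak is unknown, which limits what an uncalled peak can show.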
